A study of Mus musculus with 15 samples.

Results

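The genes described here are 37 genes of sphingolipid and glycosphingolipid metabolism, listed by name and found by symbol among the 55487 genes of both deposited count tables. They fall into 5 arms of the pathway: 16 genes of ceramide synthesis, 6 of sphingomyelin synthesis and breakdown, 6 of ceramide breakdown and phosphorylation, 4 of glycosphingolipid synthesis and 5 of the sphingosine-1-phosphate route. Expression was measured by RNA sequencing in erythroid progenitors from fetal livers of 129S6/SvEvTac mouse embryos at stage E12.5, in 15 libraries. Mice of group 1 gave polyA RNA of 3 wildtypes and 3 Rpl5 mutants, and mice of group 2 gave total RNA of 3 wildtypes, 3 mutants and 3 mutants labelled low-yield. Rpl5 is a ribosomal protein gene, and the comparisons ask how its mutation changes the progenitors. For group 2 the sample table deposited beside the counts names the mutants Rpl5plusSkax23Jus, which gives 1 mutant allele beside 1 wildtype allele, while the labels of group 1 say only that the libraries are mutant. No treatment is given for any group, and the labels do not say what low-yield means, how the progenitors were isolated or whether libraries came from separate embryos, so the p-values measure the spread between these libraries only. Levels are not compared between the groups of mice, since their RNA was prepared differently.

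Sphingolipids are membrane lipids built on a long-chain base that serine palmitoyltransferase makes from serine and a fatty acyl-CoA. Ceramide, the branch point, is turned into sphingomyelin, into glucosylceramide and the sugar-bearing lipids that follow from it, into ceramide phosphate, or back into sphingosine. Sphingosine kinases phosphorylate sphingosine to sphingosine-1-phosphate, a signalling lipid that red blood cells store and release into the blood plasma.

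The libraries held 24954324 to 58513669 counts, of which the 37 genes took 0.130% to 0.153%. Rpl5 was lower in every mutant library: 656 to 745 CPM (counts scaled to library size with TMM factors) in group 1 wildtype against 520 to 570 in mutant, and in group 2 wildtype 303 to 374 against 232 to 248 (mutant) and 219 to 278 (low-yield mutant). The tissue label was checked against marker genes. The summed CPM of 13 late erythroid genes (hemoglobins, Alas2, Slc4a1, Klf1 and others) was 6306 to 8225 in group 1 wildtype, 3463 to 3577 in mutant, 9185 to 16620 in group 2 wildtype, 5785 to 7004 in mutant and 4834 to 6563 in low-yield mutant. The sums do not overlap between wildtype and mutant, and of the 13 genes 10, 6 and 8 fell in group 1 mutant, group 2 mutant and low-yield mutant. Of all genes tested in these comparisons 6.777%, 2.949% and 5.857% were called lower, and 5.794%, 3.321% and 6.683% higher. Of 12 early progenitor genes 2, 3 and 5 rose in the same comparisons and none was called lower, with median log2 fold changes of 0.64, 0.54 and 0.78. They summed to 882.5 to 1053 CPM in group 1 wildtype, 992.2 to 1143 in mutant, 858.3 to 1040 in group 2 wildtype, 1042 to 1160 in mutants and 1071 to 1279 in low-yield mutants, and their part in the members' changes was not tested. The 12 granulocyte and mast cell markers summed to 95.1, 709 and 686 CPM in the group 1 wildtype libraries and 250, 1373 and 959 in the mutants, so library 1 of each genotype stands apart from the other two. Their group 2 sums were 17.6 to 35.9 for wildtypes, 137 to 226 for mutants and 172 to 376 for low-yield mutants. Sums of the macrophage markers stayed between 0.980 and 12.4 CPM over all libraries, with Cd5l and Timd4 at 0 in all 15, and those of the endothelial markers between 0.953 and 11.2. Hepatocyte markers summed to 40.6 to 72.4 CPM in group 1 wildtype and 10.7 to 29.5 in mutant, which do not overlap, with 3 of 12 called lower. Their group 2 sums overlapped, at 13.7 to 95.9, 14.6 to 63.5 and 57.3 to 62.7 for wildtypes, mutants and low-yield mutants, and their part in the members' changes was not tested. Megakaryocyte markers summed to 30.6 to 58.7, except in low-yield mutants, at 62.4 to 67.4. Of those tested, 0 of 9, 1 of 8 and 5 of 8 were called higher in group 1 mutants, group 2 mutants and low-yield mutants, with 1, 0 and 1 called lower and medians of 0.30, 0.69 and 1.76. In bulk RNA, fewer cells of a type and less RNA per cell cannot be told apart.

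Of the 37 genes, 33 passed the filter on low counts in every comparison, and Degs2, a desaturase and hydroxylase of ceramide precursors, passed it outside group 1. Sptlc3, Sptssb and Acer1 were tested nowhere, with 0, 2 and 0 counts over all 15 libraries. In wildtype cells of group 1 the most abundant gene per length was Ugcg at 202 ± 24.9 (SD, n = 3), on a scale of reads per kilobase of exon, with all genes of a library scaled to the same sum and a gene's length taken as its merged exons. St3gal5 followed at 170 ± 12.1, Cers2 at 119 ± 6.91, Ormdl3 at 101 ± 2.95 and Degs1 at 62.9 ± 3.87. Group 2 wildtype had the same first 4 genes: Ugcg at 159 ± 6.32, St3gal5 at 124 ± 21.4, Cers2 at 83.8 ± 11.3 and Ormdl3 at 72.6 ± 3.48. In that group the libraries of Cers2 and Ormdl3 overlapped, while those of Ugcg lay above those of St3gal5. With the longest transcript as the length Ugcg stayed first, but Cers2 stood above St3gal5, at 150 against 138 in group 1 and 113 against 108 in group 2, and in group 2 Ormdl3 at 59.0 fell below Sphk1 at 63.7 and Sgpp1 at 60.6. The order below Ugcg therefore depends on the length used.

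**Figure D1:**
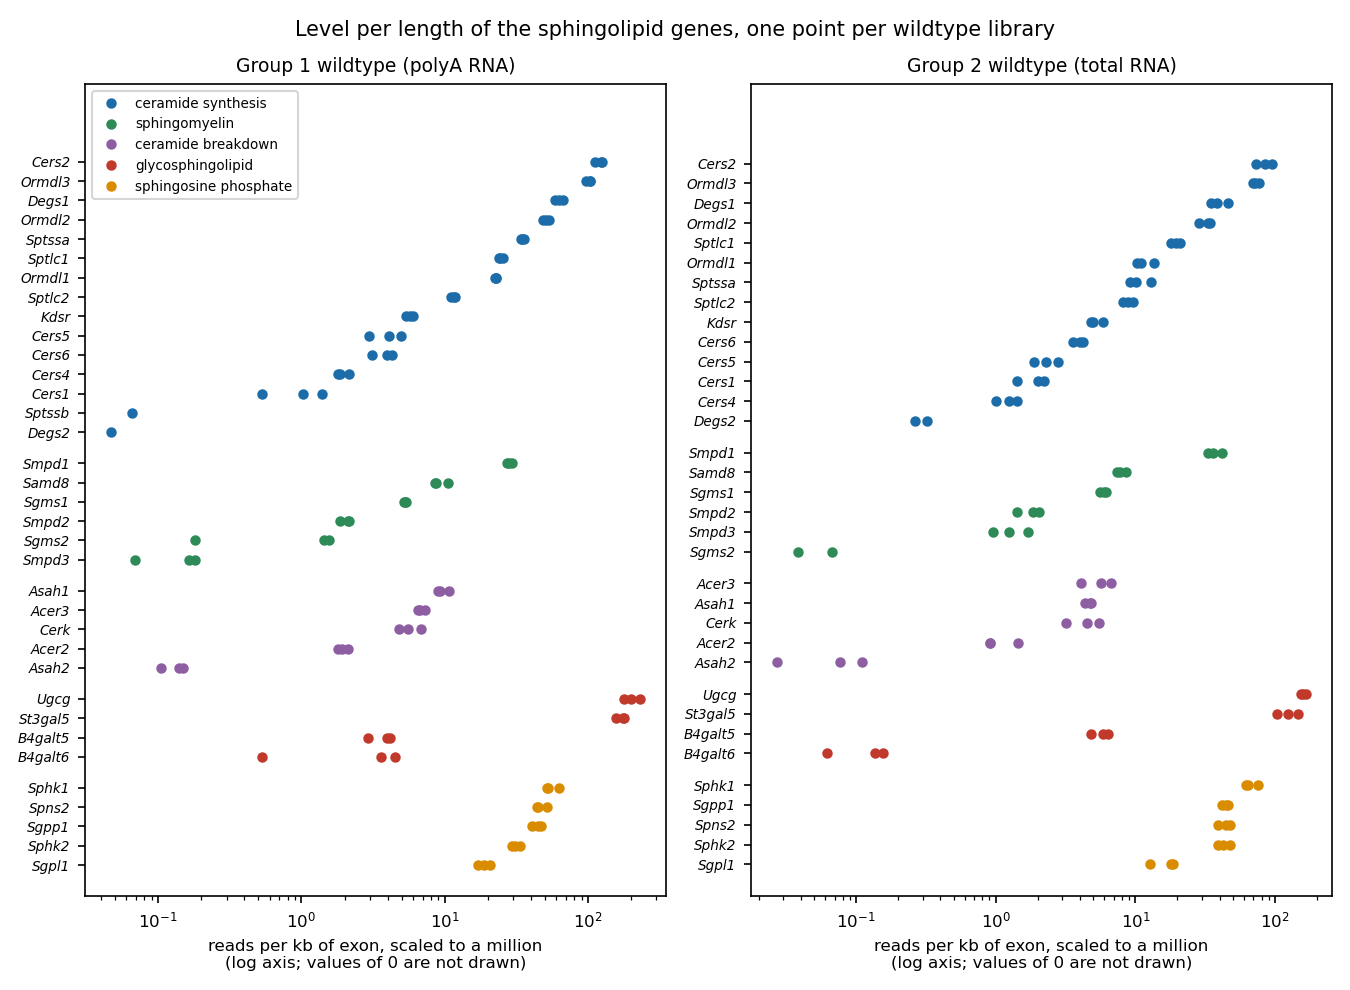
Level per length of each sphingolipid gene in wildtype libraries (horizontal log axis: reads per kilobase of exon, all genes of a library scaled to the same sum; one point per library; colours mark the arms of the pathway; left, group 1; right, group 2). Lengths are merged exons. Ugcg stands highest, at a mean of 202 in group 1, and Degs2 and Asah2 are among the lowest of both groups.

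In group 1, 9 of the 33 tested genes passed an adjusted p of 0.05: Sptssa, Cers5, Cers6 and Spns2 were higher in mutants, and Ormdl3, Acer3, St3gal5, Sphk1 and Sgpl1 lower. Among all 14048 genes tested there, 12.57% were called, 5.794% as higher and 6.777% as lower. In group 2 mutants 4 of 34 passed, with Cers6, B4galt6 and Spns2 higher and Sphk1 lower, where 6.27% of all genes were called, 3.321% higher and 2.949% lower. Low-yield mutants, set against the same wildtype libraries, gave 11 of 34: Cers5, Cers6, Sgms2, B4galt5, B4galt6 and Spns2 were higher and Ormdl1, Ormdl3, St3gal5, Sphk1 and Sgpl1 lower, where 12.54% of all genes were called, 6.683% higher and 5.857% lower. A fit over both groups of mice, with the group as a term and without the low-yield libraries, called 13 of 34, against 19.61% of all genes, 9.803% in each direction. It added Kdsr and Smpd2 as higher and Degs1 as lower to members named above. The members' median log2 fold change was 0.07 in group 1, 0.10 in group 2 mutants, 0.13 in low-yield mutants and 0.08 over both groups, beside 0.01, -0.01, 0.00 and 0.00 for all genes tested. The median size of change was 0.26, 0.29, 0.39 and 0.31 for members and 0.20, 0.20, 0.23 and 0.20 for all genes. Genes of the pathway were called in both directions in each of these 4 comparisons. Whether library ranges overlap, as given below, describes 3 libraries a group and is not a test. The share of all genes without overlap was not counted.

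**Figure D2:**
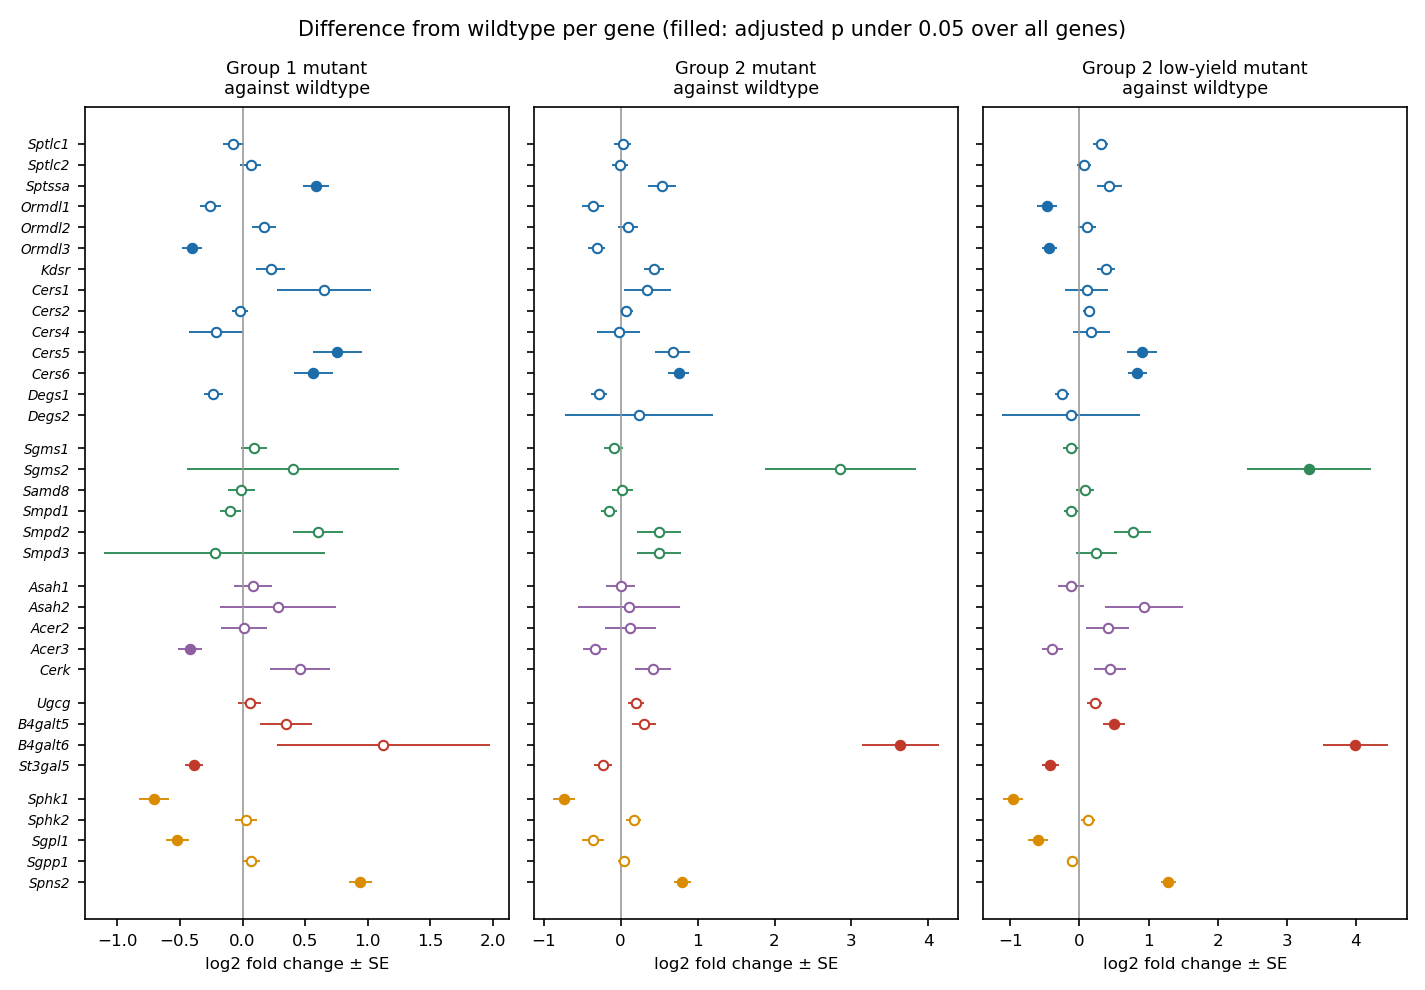
Log2 fold change with its standard error for each tested sphingolipid gene, in the 3 comparisons with wildtype (horizontal axes differ in range between panels; filled points have an adjusted p under 0.05 over all genes; the colours mark the arms). Spns2, Sphk1 and Cers6 are filled in all 3 panels, and B4galt6 lies farthest to the right in group 2.

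Ceramide synthesis begins with serine palmitoyltransferase, and its large subunits did not pass in the main test of any comparison. Sptlc1, the subunit shared by all forms of the enzyme, was 26.9 to 29.3 CPM in group 1 wildtype and 25.1 to 27.5 in mutant, and Sptlc2, a catalytic subunit, 28.9 to 30.4 and 29.4 to 32.7. In group 2, Sptlc1 spanned 24.3 to 29.3 CPM in wildtype, 25.1 to 28.3 in mutant and 30.9 to 35.6 in low-yield mutant, the last above both other ranges at a log2 fold change of 0.30 ± 0.11 (SE) over wildtype and an adjusted p of 0.0824. It passed with limma-voom (0.0146), without wildtype library 1 (0.0321) and with a filter at a mean CPM of 5 (0.0495), in a range of 0.0146 to 0.296 over 17 alternatives.

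The small subunit gene Sptssa, whose product raises the enzyme's activity, was higher in mutants. It measured 16.6, 17.2 and 16.9 CPM in group 1 wildtype and 23.0, 25.0 and 28.1 in mutant, so every mutant library lay above every wildtype one. The log2 fold change was 0.59 ± 0.10 (adjusted p = 0.00386). In group 2 it read 7.78, 5.34 and 5.77 CPM in wildtype, 9.68, 9.61 and 8.16 in mutants and 8.67, 7.70 and 8.91 in low-yield mutants. There the mutants again lay above wildtype, with 0.54 ± 0.18 and an adjusted p of 0.0945, while the low-yield range overlapped wildtype (0.43 ± 0.18, adjusted p = 0.135). Both passed with limma-voom and without wildtype library 1, with ranges of 0.0245 to 0.28 and 0.03 to 0.355 over 17 alternatives. Over both groups the log2 fold change was 0.57 ± 0.09 (adjusted p = 0.000233).

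The Ormdl proteins bind serine palmitoyltransferase and restrain it. Ormdl3, the most abundant of the 3 genes per length, measured 72.6, 70.5 and 69.0 CPM in group 1 wildtype and 58.0, 55.0 and 47.3 in mutant. Group 2 libraries read 62.6, 64.0 and 56.8 CPM in wildtype, 47.0, 46.2 and 54.2 in mutants and 44.8, 38.4 and 51.9 in low-yield mutants. Mutant libraries lay below wildtype in both groups with no overlap. Log2 fold changes were -0.40 ± 0.08 in group 1 (adjusted p = 0.00824), -0.31 ± 0.11 in group 2 mutant (adjusted p = 0.117) and -0.44 ± 0.11 in low-yield mutant (adjusted p = 0.0185). The low-yield call was lost without wildtype library 2 (adjusted p = 0.0802), low-yield library 1 (0.0792) or low-yield library 2 (0.119).

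Ormdl1 measured 34.4, 33.9 and 34.7 CPM in group 1 wildtype and 28.0, 27.7 and 30.6 in mutant. In group 2 its values were 20.5, 18.4 and 24.0 CPM in wildtype, 15.6, 17.2 and 16.5 in mutants and 13.8, 13.4 and 18.1 in low-yield mutants. No mutant library reached the wildtype range in either group. The log2 fold change was -0.26 ± 0.08 in group 1, with an adjusted p of 0.061 that became 0.0419 with the replicate number as a block (0.0419 to 0.23 over 14 alternatives). It was -0.36 ± 0.14 in group 2 mutant (adjusted p = 0.163), -0.47 ± 0.14 in low-yield mutant (0.0424) and -0.30 ± 0.07 over both groups (0.00628). The low-yield call was lost without wildtype library 3 (0.176), low-yield library 1 (0.18) or 2 (0.19), mutant library 1 (0.058) or 3 (0.063), or with the 6 compared libraries alone (0.0727). Ormdl2, the remaining member of the family, passed nowhere, with log2 fold changes of 0.17 ± 0.10, 0.09 ± 0.13 and 0.11 ± 0.13 in group 1 mutant, group 2 mutant and low-yield mutant. Exons of Dnajc14 on the opposite strand cover 66.7% of its exon bases, and whether counting used the strand is not given in the sources used here, so reads from the shared bases are uncertain.

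**Figure D3:**
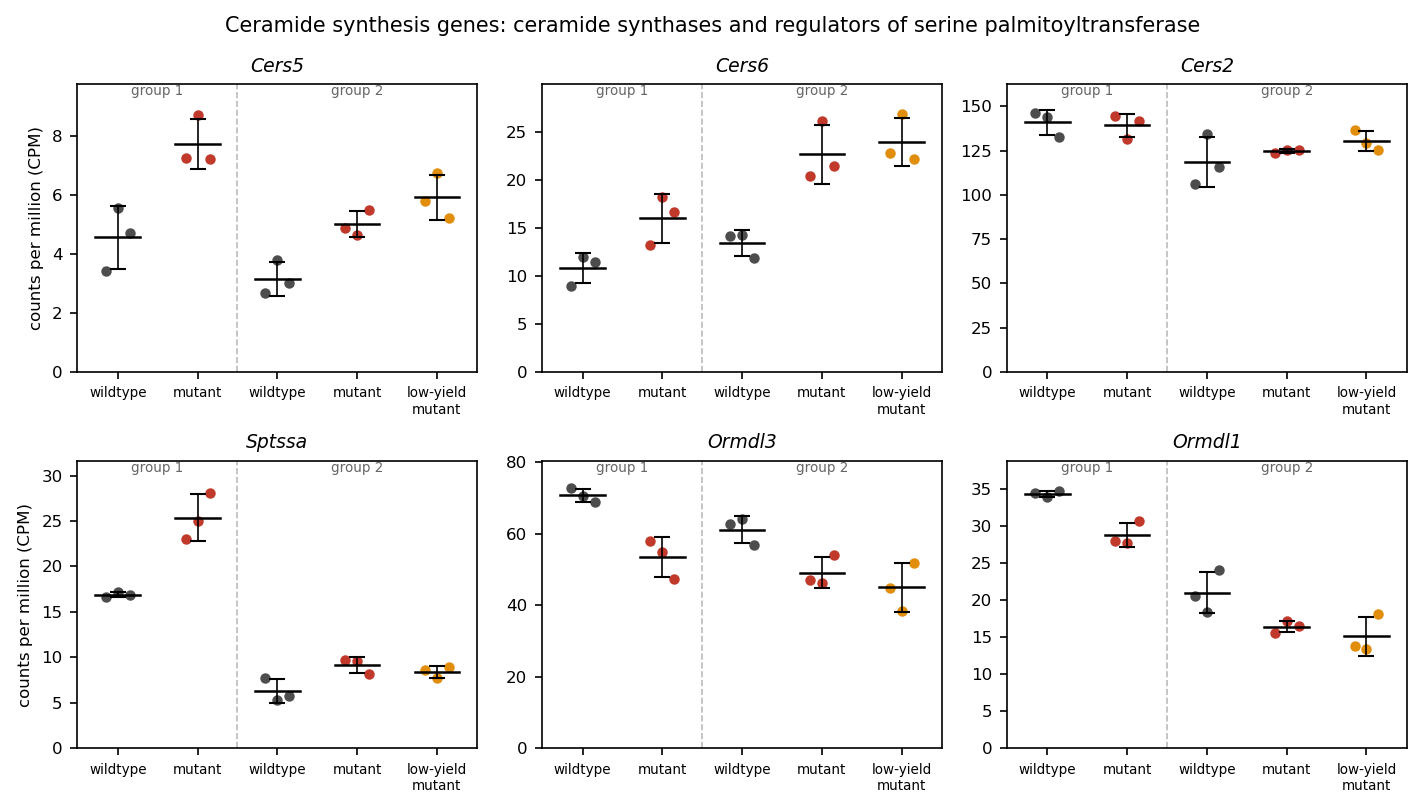
CPM per library for 6 genes of ceramide synthesis (vertical axes start at 0; points are libraries, bars the mean and SD of 3; the dashed line parts the groups of mice, whose levels are not comparable). Within each group of mice the mutant and low-yield libraries lie above wildtype in Cers5 and Cers6 and below it in Ormdl3 and Ormdl1. Those of Sptssa lie above it except low-yield library 2, at 7.70 CPM against 7.78 in wildtype library 1, and Cers2 overlaps; not all of these differences passed the test.

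Ceramide synthases attach a fatty acid to the long-chain base, each preferring a chain length, and their members differed. Cers2, which prefers very long chains, was the most abundant gene of the arm and held 90.7% to 93.6% of the level per length of the 5 synthase genes in group 1 wildtype. It measured 146, 144 and 133 CPM there and 144, 132 and 142 in mutant. The values in group 2 were 106, 134 and 116 CPM in wildtype, 124, 126 and 126 in mutants and 137, 129 and 125 in low-yield mutants. The ranges overlap in every comparison, and the log2 fold changes were -0.02 ± 0.06, 0.08 ± 0.09 and 0.14 ± 0.09. Exons of Setdb1 and of 6330562C20Rik overlap 2.04% and 3.92% of its exon bases on the other strand.

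Cers6, which makes ceramide with a C16 chain, rose in both groups of mice. In group 1 its libraries read 8.97, 11.9 and 11.4 CPM in wildtype and 13.1, 18.2 and 16.6 in mutant. In group 2 they read 14.2, 14.2 and 11.9 CPM in wildtype, 20.4, 26.1 and 21.4 in mutants and 22.8, 26.8 and 22.1 in low-yield mutants. All 9 mutant libraries exceeded the wildtype libraries of their own group. The log2 fold changes came to 0.57 ± 0.15 in group 1 (adjusted p = 0.0326), 0.75 ± 0.14 in group 2 mutant (0.00458), 0.84 ± 0.14 in low-yield mutant (0.00107) and 0.66 ± 0.10 over both groups (0.000121). The group 1 call alone was lost when a library was left out: wildtype 1 (0.106), 2 (0.0665) or 3 (0.0664), mutant 2 (0.0942) or 3 (0.12).

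Cers5, whose product also prefers C16 chains, was less abundant and moved in the same direction. It read 3.42, 5.56 and 4.69 CPM in group 1 wildtype and 7.25, 8.71 and 7.19 in mutant. Group 2 gave 2.66, 3.78 and 3.01 CPM in wildtype, 4.87, 4.63 and 5.50 in mutants and 5.79, 6.73 and 5.22 in low-yield mutants. None of the mutant libraries overlapped wildtype. Fitted changes on the log2 scale were 0.76 ± 0.20 in group 1 (adjusted p = 0.0274), 0.68 ± 0.22 in group 2 mutant (0.0908), 0.90 ± 0.22 in low-yield mutant (0.013) and 0.73 ± 0.14 over both groups (0.00104). The group 1 call was lost without wildtype library 1 (0.093) or 3 (0.0692), mutant library 2 (0.0764) or 3 (0.0708), or both libraries numbered 1 (0.0884). The low-yield call was lost without wildtype library 3 (0.0529) or low-yield library 2 (0.0732).

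The make-up of the synthase family, as shares of its summed level per length, differed by a few percentage points. Cers5 held 2.27% to 3.64% in group 1 wildtype and 4.67% to 5.92% in mutant. Cers6 held 2.38% to 3.24% in group 1 wildtype and 3.39% to 4.93% in mutant, and 3.85% to 4.89% in group 2 wildtype, 5.98% to 7.36% in mutant and 6.04% to 7.29% in low-yield mutant. Cers2 held 86.3% to 89.9% in group 1 mutant. In group 2 it held 88.4% to 90.8% in wildtype and 85.0% to 87.5% over both mutant kinds. Shares were not tested. Cers1 and Cers4, which favour C18 and C18 to C20 chains, passed nowhere, with log2 fold changes from -0.21 to 0.65. Cers1 shares 42.5% of its exon bases with Gdf1 on the same strand, so its low level is uncertain.

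Kdsr, the reductase that acts right after serine palmitoyltransferase, was called by the main test in the fit over both groups alone. Its libraries read 15.2, 15.3 and 14.1 CPM in group 1 wildtype and 17.3, 19.5 and 15.4 in mutant. In group 2 they read 18.9, 15.4 and 14.7 CPM in wildtype, 22.7, 20.7 and 22.2 in mutants and 23.3, 19.6 and 20.8 in low-yield mutants. The lowest mutant of group 1 was level with the highest wildtype, and in group 2 the mutants lay above wildtype. The log2 fold change over both groups was 0.32 ± 0.09 (adjusted p = 0.0142), with 0.23 ± 0.12 (0.243), 0.43 ± 0.13 (0.0596) and 0.38 ± 0.13 (0.0602) in group 1 mutant, group 2 mutant and low-yield mutant. Both group 2 values passed under 5 of 17 alternatives, DESeq2 and limma-voom among them, with ranges of 0.0117 to 0.193 and 0.00891 to 0.248.

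Degs1, the desaturase that completes ceramide, went the other way. It read 56.1, 51.4 and 49.6 CPM in group 1 wildtype and 46.3, 43.3 and 43.9 in mutant. Measured in group 2, it was 35.9, 38.1 and 44.4 CPM in wildtype, 31.5, 34.7 and 31.4 in mutants and 31.8, 34.5 and 33.6 in low-yield mutants. Mutants lay below wildtype without overlap in both groups. The log2 fold change was -0.26 ± 0.07 over both groups (adjusted p = 0.0108). In group 1 it was -0.23 ± 0.08 with an adjusted p of 0.066, which the replicate block brought to 0.0368 (0.0368 to 0.281 over 14 alternatives). Group 2 mutant and low-yield mutant gave -0.28 ± 0.10 (0.127) and -0.25 ± 0.10 (0.133), both of which passed with limma-voom (0.0364 and 0.0444) and with no other alternative of 17, the highest being 0.39 and 0.428.

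Summed over the 16 genes of ceramide synthesis, the arm held 429 to 447 CPM in group 1 wildtype and 425 to 434 in mutant. In group 2 it held 355 to 372, 363 to 371 and 372 to 379 in wildtype, mutant and low-yield mutant. Each mutant range overlapped wildtype. The sum pools genes called in opposite directions, with Cers2 at 133 to 146 CPM of it in group 1 wildtype, and was not tested.

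For Spns2, Sphk1 and Cers6, each called in 1 direction in all 3 comparisons with wildtype, the RefSeq promoter windows are shown. Such windows of 300 bases, 250 before the start and 50 after, were matched for 34 of the 37 genes (build GRCm38.p6). Capitals mark 3 short motifs on either strand: GATAA, of the kind bound by GATA factors, CCNCNCCC, of the kind bound by erythroid KLF factors, and CACGTG, an E-box. Spns2 lies at chr11:72474978-72475277 on the minus strand, Sphk1 at chr11:116530850-116531149 on the plus strand, the farthest upstream of its 5 windows, and Cers6 at chr2:68861191-68861490 on the plus strand.
Spns2: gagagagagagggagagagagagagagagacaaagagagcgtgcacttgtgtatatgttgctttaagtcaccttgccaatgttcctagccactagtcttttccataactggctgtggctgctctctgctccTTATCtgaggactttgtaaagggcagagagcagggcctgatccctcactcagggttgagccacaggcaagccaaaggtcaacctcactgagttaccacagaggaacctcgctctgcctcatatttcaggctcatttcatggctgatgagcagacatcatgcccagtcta
Sphk1: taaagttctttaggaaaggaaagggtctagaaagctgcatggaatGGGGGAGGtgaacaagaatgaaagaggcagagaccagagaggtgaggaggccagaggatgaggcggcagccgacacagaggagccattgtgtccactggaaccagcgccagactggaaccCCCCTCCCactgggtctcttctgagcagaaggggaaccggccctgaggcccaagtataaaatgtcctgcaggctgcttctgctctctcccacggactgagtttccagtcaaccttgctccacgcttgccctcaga
Cers6: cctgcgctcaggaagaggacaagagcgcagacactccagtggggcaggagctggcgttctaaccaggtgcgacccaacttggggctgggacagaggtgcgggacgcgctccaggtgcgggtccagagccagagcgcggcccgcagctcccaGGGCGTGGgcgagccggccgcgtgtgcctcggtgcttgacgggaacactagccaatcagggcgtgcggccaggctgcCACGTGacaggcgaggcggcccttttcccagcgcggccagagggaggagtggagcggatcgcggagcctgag
The Spns2 window holds 1 GATAA, read on the other strand, 119 bases before the RefSeq start, the Sphk1 window 2 CCNCNCCC and the Cers6 window 1 CCNCNCCC and 1 CACGTG, 22 bases before the start. The other Sphk1 windows differ: 2 of the 5, starting at 116532194 and 116532201, hold 1 GATAA, 2 CCNCNCCC and 1 CACGTG each. A further 2, starting at 116531587 and 116531661, hold 1 CCNCNCCC each. Within each pair the windows share most of their bases, so their matches may be the same sites. Of 32851 windows of the same length, 25.4% hold GATAA, 49.5% CCNCNCCC and 7.15% CACGTG. A match is a description of the sequence only. The RefSeq start of Spns2 lies 14877 bases downstream of the most upstream GENCODE start of the gene, that of Sphk1 175 bases downstream, and that of Cers6 on it, and which start these cells use was not measured.

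Sphingomyelin is made from ceramide by Sgms1 in the Golgi and Sgms2 at the plasma membrane, and is split by sphingomyelinases. Smpd1, the lysosomal sphingomyelinase and the most abundant gene of the arm per length, read 29.3, 29.3 and 31.8 CPM in group 1 wildtype and 27.7, 27.6 and 29.2 in mutant. Group 2 gave 47.7, 42.4 and 52.0 CPM in wildtype, 39.6, 45.1 and 42.9 in mutants and 43.7, 40.0 and 47.1 in low-yield mutants. Mutants were just below wildtype in group 1 and overlapped it in group 2, with log2 fold changes of -0.10 ± 0.08, -0.16 ± 0.10 and -0.12 ± 0.10, none of them called. Sgms1 and Samd8, a related gene whose product makes ceramide phosphoethanolamine, lay between -0.12 and 0.09 in the 3 comparisons with wildtype.

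Sgms2 was rare and was called by the main test in low-yield mutants. It read 0.0949, 0 and 0.156 CPM in group 2 wildtype, which is 3, 0 and 7 counts, 0.672, 1.16 and 0.336 in mutants and 1.89, 0.426 and 0.599 in low-yield mutants. Every mutant library was above every wildtype one. On the log2 scale the changes were 2.85 ± 0.98 in mutant (adjusted p = 0.0953) and 3.32 ± 0.89 in low-yield mutant (0.0201). The first passed with DESeq2 (0.0135, in a range of 0.0135 to 0.274 over 16 alternatives), and the second was lost without wildtype library 2 (0.0942) or 3 (0.0552) or low-yield library 1 (0.141). In group 1 the libraries read 0.367, 2.83 and 3.12 CPM in wildtype and 0.911, 5.30 and 2.27 in mutant, which overlap, with library 1 of each genotype lowest (0.40 ± 0.85, adjusted p = 0.807). The granulocyte and mast cell markers were also lowest in library 1 of each group 1 genotype, and in group 2 the libraries highest in Sgms2, mutant 2 and low-yield 1, had the highest marker sums of their kind, 226 and 376 CPM. The order differed elsewhere: group 1 wildtype library 3 was highest in Sgms2 and library 2 in the markers. Group 2 mutant 1 exceeded mutant 3 in Sgms2 at marker sums of 137 and 139. Low-yield 3 exceeded low-yield 2 in Sgms2 at sums of 172 and 181. The part of these markers in the result was not tested.

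Smpd2, a neutral sphingomyelinase, was called in the fit over both groups. It read 3.07, 3.00 and 2.67 CPM in group 1 wildtype and 4.17, 4.68 and 4.45 in mutant. Group 2 gave 3.29, 3.50 and 2.36 CPM in wildtype, 4.97, 3.28 and 4.39 in mutants and 6.24, 5.84 and 3.55 in low-yield mutants. In group 1 all mutants lay above wildtype, in group 2 mutant library 2 fell within the wildtype range, and the low-yield libraries lay above it. The log2 fold change was 0.56 ± 0.15 over both groups (adjusted p = 0.0125) and 0.61 ± 0.20 in group 1, with an adjusted p of 0.069 that became 0.0461 with the replicate block (0.0461 to 0.179 over 13 alternatives). Low-yield mutants gave 0.77 ± 0.27 with an adjusted p of 0.079, which passed with limma-voom (0.037) and without low-yield library 3 (0.0191, in a range of 0.0191 to 0.28 over 16 alternatives). Exons of Mical1 on the opposite strand cover 20.3% of Smpd2's exon bases, and Mical1 changed by 0.43 ± 0.12 over both groups (0.0152). Its changes were 0.42 ± 0.11 in group 1 (0.0267), 0.43 ± 0.28 in group 2 mutants (0.45) and 0.89 ± 0.27 in low-yield mutants (0.0649). Reads from the shared bases are uncertain, and their part in the result was not tested. Smpd3, another neutral sphingomyelinase, passed nowhere and was at most 0.484 CPM in group 1. Smpd4, a further neutral sphingomyelinase that belongs to the wider transport and signalling list, read 148 to 217 CPM over all libraries and was called in no comparison.

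Glycosphingolipids start with Ugcg, which adds glucose to ceramide. It was the most abundant gene of the pathway per length and did not pass. Its libraries read 303, 327 and 386 CPM in group 1 wildtype and 323, 369 and 366 in mutant. In group 2 they read 327, 305 and 322 CPM in wildtype, 339, 436 and 325 in mutants and 356, 413 and 343 in low-yield mutants. Ranges overlap in group 1 and between wildtype and mutant of group 2, and the low-yield libraries lie above wildtype. As log2 fold changes these were 0.06 ± 0.09 (adjusted p = 0.728), 0.20 ± 0.11 (0.306) and 0.22 ± 0.11 (0.203).

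Both lactosylceramide synthase genes, B4galt5 and B4galt6, were higher in low-yield mutants, by very different amounts. B4galt6 read 0.316, 0.347 and 0.134 CPM in group 2 wildtype (10, 12 and 6 counts), 4.03, 3.78 and 2.01 in mutants and 4.73, 4.41 and 3.23 in low-yield mutants. No mutant library came near wildtype, and the mutant kinds overlapped each other. Log2 fold changes were 3.63 ± 0.50 in mutant (adjusted p = 0.000764) and 3.99 ± 0.47 in low-yield mutant (0.000119), and neither call was lost under any of the 16 alternatives that gave a value.

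In group 1, B4galt6 read 1.01, 8.27 and 6.80 CPM in wildtype and 4.41, 18.1 and 12.8 in mutant. Library 1 of each genotype was far below libraries 2 and 3, so the ranges overlap, but within each replicate number the mutant was higher. The log2 fold change was 1.13 ± 0.85 (adjusted p = 0.477) without the replicate block and 1.19 ± 0.18 (5.72e-05) with it, and 1.04 ± 0.20 (0.00262) without both libraries numbered 1 (5.72e-05 to 0.734 over 14 alternatives). The interaction term, which tests whether the change differed between the groups of mice, was 2.53 ± 1.74 (adjusted p = 1) without the block. It was 2.46 ± 0.54 (adjusted p = 0.35) with the block and 2.605 ± 0.609 (0.586) without both libraries numbered 1. None of these passed.

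Granulocyte and mast cell markers were high and low in largely the same libraries as B4galt6. In group 1 the markers summed to 95.1 and 250 CPM in library 1 of wildtype and mutant, where B4galt6 was 1.01 and 4.41, and to 1373 in mutant library 2, where it was 18.1. In group 2 they summed to 17.6 to 35.9 CPM in wildtype, where B4galt6 was 0.134 to 0.347, and to 137 to 376 in the mutants of both kinds, where it was 2.01 to 4.73. Among group 2 mutants, though, library 1 was highest in B4galt6 and library 2 in the markers. Of the 12 markers 8 were tested in group 2, of which 5 were higher in mutants and 8 in low-yield mutants. Among all genes tested there, 3.321% and 6.683% were called higher. Mpo and Prg2 had counts in all 15 libraries, and Mcpt8 was at 0 in 13 of them. The part of these markers in the B4galt6 result was not tested.

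**Figure D4:**
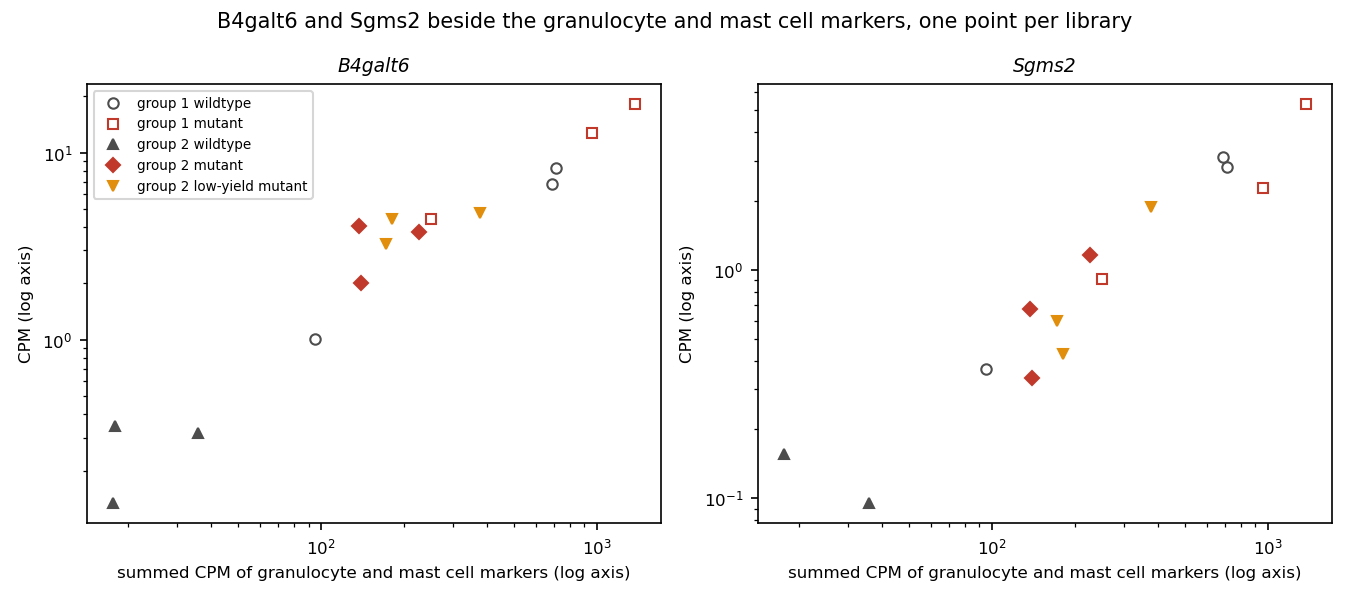
CPM of B4galt6 (left) and Sgms2 (right) against the summed CPM of 12 granulocyte and mast cell markers (both axes logarithmic; one point per library, symbols mark the groups; 1 group 2 wildtype library with Sgms2 at 0 is not drawn). Points are to be compared within a group of mice: in group 2 the wildtype libraries have the lowest marker sums, 17.6 to 35.9, and in group 1 mutant library 2 has the highest, 1373.

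B4galt5 was the larger part of this pair per length in group 2 wildtype, at 96.9% to 99.0% of their sum, and 78.3% to 89.9% in the mutants and low-yield mutants of that group. It read 10.8, 7.92 and 9.38 CPM in group 2 wildtype, 10.9, 10.3 and 13.2 in mutants and 12.6, 13.3 and 13.8 in low-yield mutants. Low-yield libraries were above wildtype, while mutants overlapped it. The log2 fold changes came to 0.30 ± 0.16 (adjusted p = 0.304) and 0.50 ± 0.16 (0.0459). The first passed with limma-voom (0.0438, in a range of 0.0438 to 0.696 over 17 alternatives). The second call rested on single libraries: without wildtype library 2 the adjusted p was 0.179, without wildtype library 3 0.108, without low-yield libraries 1, 2 and 3 in turn 0.105, 0.126 and 0.105, and without mutant library 1 or 3 0.057 and 0.0535. It was also lost without a filter on low counts (0.0533), with the 6 compared libraries alone (0.0621) and in edgeR's legacy mode (0.0608). In group 1, B4galt5 read 4.06, 5.61 and 5.50 CPM in wildtype and 7.27, 7.13 and 4.96 in mutant, which overlap (0.35 ± 0.21, 0.309).

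St3gal5 makes GM3, the simplest ganglioside, from lactosylceramide, and it fell in group 1 and in low-yield mutants. It read 132, 144 and 151 CPM in group 1 wildtype and 106, 115 and 105 in mutant. In group 2 it read 107, 124 and 143 CPM in wildtype, 103, 107 and 110 in mutants and 89.8, 78.7 and 111 in low-yield mutants. Group 1 ranges do not overlap, and in group 2 wildtype library 1 lies within the mutant and low-yield ranges. Fitted changes on the log2 scale were -0.39 ± 0.07 in group 1 (adjusted p = 0.00404), -0.23 ± 0.12 in group 2 mutant (0.312), -0.42 ± 0.12 in low-yield mutant (0.0358) and -0.31 ± 0.07 over both groups (0.00208). The low-yield call was lost without wildtype library 2 (0.099) or 3 (0.145), low-yield library 1 (0.137) or 2 (0.178), any of the mutant libraries (0.0531, 0.0507 and 0.0529), with the 6 compared libraries alone (0.0678) and with a filter at a mean CPM of 5 (0.0502).

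Further along the pathway, the list of 12 genes that extend or modify glycosphingolipids was mostly silent in these cells: 4 were tested in group 1 and 3 in group 2. St6galnac6, a sialyltransferase that adds sialic acid to gangliosides, fell in all comparisons with wildtype. It read 32.3, 35.0 and 28.8 CPM in group 1 wildtype and 21.7, 25.0 and 22.0 in mutant. Group 2 libraries read 30.0, 34.9 and 27.8 CPM in wildtype, 23.4, 20.1 and 22.8 in mutants and 19.6, 18.3 and 18.7 in low-yield mutants. There was no overlap with wildtype. On the log2 scale the changes were -0.48 ± 0.10 (adjusted p = 0.0101), -0.48 ± 0.12 (0.023) and -0.71 ± 0.12 (0.00114). The first was lost without wildtype library 2 (0.0665) or mutant library 3 (0.059), and the second without wildtype library 2 (0.121) or any of the mutant libraries (0.0575, 0.0721 and 0.0756).

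Ceramide is broken down by ceramidases, which release sphingosine, or phosphorylated by Cerk. Asah1, the lysosomal acid ceramidase, was the most abundant of the arm per length in group 1 wildtype at 9.65 ± 0.95 (SD, n = 3), and Acer3, an alkaline ceramidase, in group 2 wildtype at 5.48 ± 1.31, where Asah1 at 4.63 ± 0.26 did not differ from it beyond that spread. Asah1 read 9.82, 9.90 and 11.8 CPM in group 1 wildtype and 9.52, 13.3 and 10.6 in mutant. The values in group 2 were 6.52, 5.63 and 6.01 CPM in wildtype, 5.34, 7.10 and 5.83 in mutants and 5.12, 5.36 and 6.09 in low-yield mutants. All these ranges overlap, and the log2 fold changes of 0.09 ± 0.15, 0.00 ± 0.19 and -0.12 ± 0.19 were not called.

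Acer3 was the member of the arm that fell. It read 32.5, 35.0 and 33.3 CPM in group 1 wildtype and 28.0, 24.7 and 22.6 in mutant, with no overlap. Group 2 gave 25.0, 33.2 and 38.4 CPM in wildtype, 27.6, 27.8 and 21.8 in mutants and 21.3, 24.5 and 27.8 in low-yield mutants, where wildtype library 1 lies among the mutants. As log2 fold changes these were -0.42 ± 0.10 in group 1 (adjusted p = 0.0146), -0.33 ± 0.16 in group 2 mutant (0.242), -0.39 ± 0.15 in low-yield mutant (0.113) and -0.38 ± 0.10 over both groups (0.00816). The group 1 call was lost without wildtype library 2 (0.0777) or mutant library 3 (0.0841). The group 2 values passed with limma-voom (0.0331 and 0.0153) and without wildtype library 1 (0.0439 and 0.015), in ranges of 0.0331 to 0.599 and 0.015 to 0.385 over 17 alternatives. Cerk, the ceramide kinase, gave 0.46 ± 0.24 in group 1 with an adjusted p of 0.259, which was 0.034 with the replicate block and 0.0166 without mutant library 1 (0.0166 to 0.554 over 14 alternatives). In group 2 its values were 0.42 ± 0.23 (0.335) and 0.45 ± 0.23 (0.24). Asah2 and Acer2 passed nowhere, and Asah2 was at most 0.791 CPM in any library.

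In the sphingosine-1-phosphate arm Spns2 rose and Sphk1 fell in each comparison with wildtype, and no alternative ended any of these calls. Spns2, a membrane transporter that exports sphingosine-1-phosphate, read 58.2, 66.5 and 58.8 CPM in group 1 wildtype and 104, 129 and 121 in mutant. Measured in group 2, it was 77.4, 70.0 and 59.4 CPM in wildtype, 122, 117 and 121 in mutants and 178, 183 and 142 in low-yield mutants. Each mutant library exceeded all wildtype libraries of its group, and each low-yield library exceeded all mutants. Log2 fold changes were 0.94 ± 0.09 in group 1 (adjusted p = 9.21e-05), 0.80 ± 0.11 in group 2 mutant (0.000833), 1.28 ± 0.11 in low-yield mutant (1.36e-05) and 0.87 ± 0.07 over both groups (4.43e-08).

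The gene spans chr11:72451638-72489904 on the minus strand of GRCm38. Exons of Mybbp1a on the other strand overlap 3.21% of its exon bases. Mybbp1a, a nucleolar protein gene, was itself higher, by 0.34 ± 0.07 in group 1 (adjusted p = 0.00997), 0.29 ± 0.09 in group 2 mutant (0.0689) and 0.39 ± 0.09 in low-yield mutant (0.00939), and its part in the Spns2 counts was not tested. Spns2 is also known from endothelial cells. The 8 endothelial markers summed to 2.26 to 5.42 CPM in group 1 wildtype and 4.48 to 11.2 in mutant, and to 0.953 to 1.96, 4.39 to 6.68 and 7.80 to 11.1 in group 2 wildtype, mutant and low-yield mutant. Of the 5 tested in group 2, 1 was higher in mutants and 4 in low-yield mutants, while Emcn was at 0 in 12 of 15 libraries. The shares of all genes called higher in those comparisons were 3.321% and 6.683%. The megakaryocyte markers given above also summed highest in the low-yield mutants, at 62.4 to 67.4 CPM against 40.0 to 45.0 in group 2 wildtype. The part of either list in the Spns2 result was not tested.

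**Figure D5:**
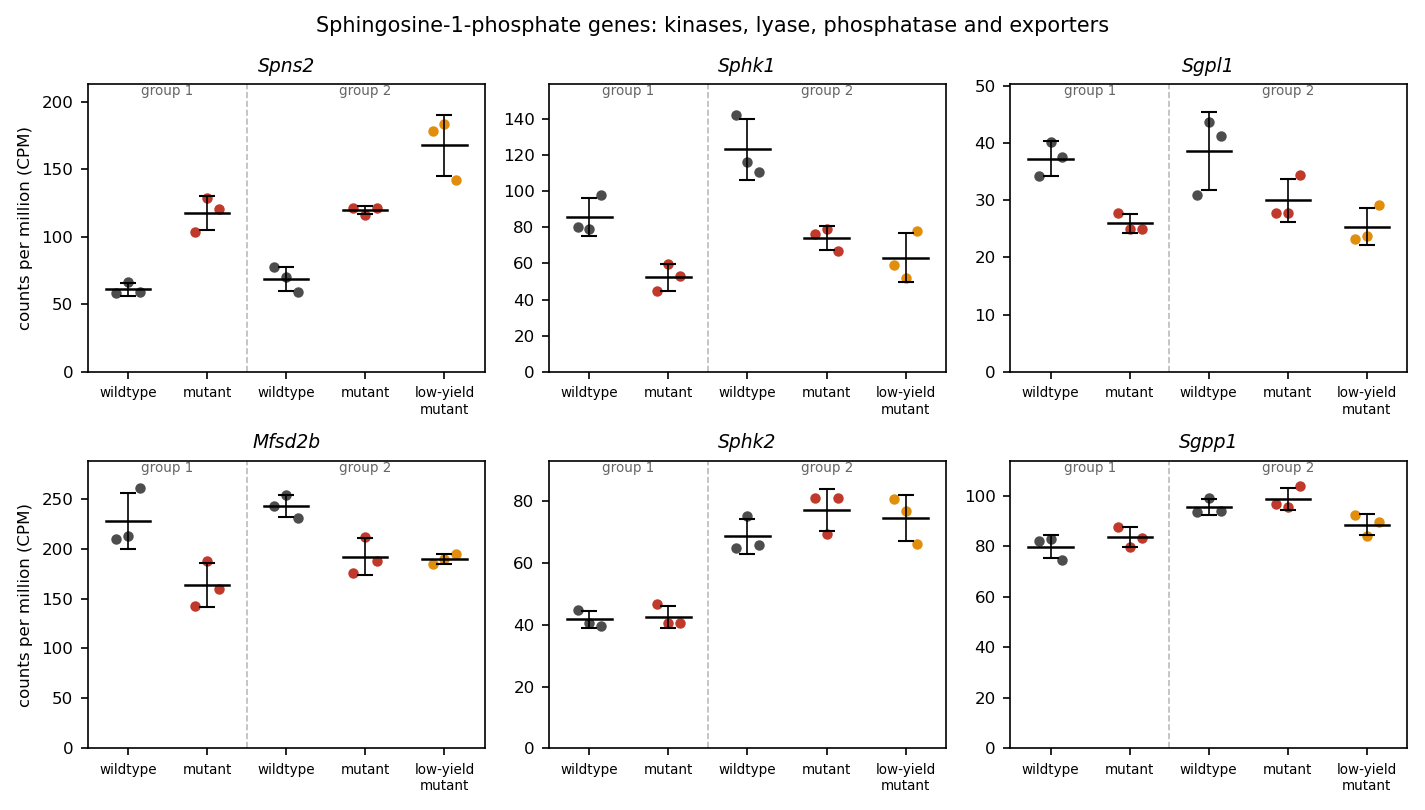
CPM per library for the sphingosine-1-phosphate genes and Mfsd2b (vertical axes start at 0; points are libraries, bars the mean and SD of 3; the dashed line parts the groups of mice, whose levels are not comparable). Spns2 rises from 58.2 to 66.5 CPM in group 1 wildtype to 104 to 129 in mutant, and Sphk1 and Mfsd2b lie below wildtype in every mutant and low-yield library of both groups. Sgpl1 does so except in group 2 mutant library 3, at 34.3 CPM against 30.9 in wildtype library 1, and Sphk2 and Sgpp1 overlap wildtype in part.

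Low-yield mutants were also compared with the other mutants of group 2. There edgeR called 0 of 34 members and 0% of 15024 genes, with 2 members and 480 genes at an unadjusted p under 0.05. DESeq2 called 0 members and 6 genes. Spns2 had the smallest p of the members, at 0.49 ± 0.11 and an adjusted p of 0.9997. It passed with limma-voom quality weights (0.0415) and without low-yield library 3 (0.0393), the lowest of the low-yield libraries, and its adjusted p ran from 0.0393 to 1 over 17 alternatives.

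Sphk1, which phosphorylates sphingosine, had the opposite pattern. It read 80.2, 78.9 and 97.6 CPM in group 1 wildtype and 44.5, 59.5 and 53.1 in mutant. In group 2 it read 142, 116 and 111 CPM in wildtype, 76.4, 79.0 and 66.7 in mutants and 59.4, 51.8 and 78.1 in low-yield mutants. Mutants lay below wildtype without overlap, and the low-yield range overlapped that of the mutants. The log2 fold changes came to -0.71 ± 0.12 in group 1 (adjusted p = 0.00558), -0.73 ± 0.14 in group 2 mutant (0.00822), -0.96 ± 0.14 in low-yield mutant (0.000816) and -0.72 ± 0.08 over both groups (2.15e-06). The gene spans chr11:116530925-116536674 on the plus strand of GRCm38. An antisense gene, Gm29292, overlaps 4.02% of its exon bases and had too few counts to be tested.

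Sphk2, the other sphingosine kinase, was not called. It read 44.8, 40.7 and 39.8 CPM in group 1 wildtype and 46.8, 40.4 and 40.6 in mutant. Group 2 gave 64.9, 75.3 and 65.8 CPM in wildtype, 81.2, 69.3 and 80.9 in mutants and 80.6, 76.9 and 66.2 in low-yield mutants, all overlapping wildtype. Fitted changes on the log2 scale were 0.03 ± 0.09, 0.17 ± 0.10 and 0.12 ± 0.10. Per length, Sphk1 went from 60.9% to 68.1% of the kinase pair in group 1 wildtype to 45.3% to 56.2% in mutant. In group 2 it went from 57.3% to 65.7% in wildtype to 41.8% to 49.8% in mutant and at most 50.7% in low-yield mutant. The shares do not overlap with wildtype and were not tested. Exons of Dbp and Rpl18 on the other strand cover 13.0% and 8.97% of Sphk2's exon bases, so its level is uncertain.

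Sgpl1, the lyase that irreversibly degrades sphingosine-1-phosphate, fell too. It read 34.1, 40.2 and 37.5 CPM in group 1 wildtype and 27.8, 25.1 and 24.9 in mutant. Group 2 libraries read 30.9, 43.6 and 41.3 CPM in wildtype, 27.7, 27.8 and 34.3 in mutants and 23.2, 23.8 and 29.2 in low-yield mutants. Mutant library 3 of group 2 overlapped wildtype library 1, and the other mutant and low-yield libraries lay below wildtype. On the log2 scale the changes were -0.52 ± 0.09 in group 1 (adjusted p = 0.00381), -0.36 ± 0.14 in group 2 mutant (0.147), -0.60 ± 0.14 in low-yield mutant (0.0112) and -0.45 ± 0.09 over both groups (0.00134). The low-yield call was lost without wildtype library 2 (0.0665), low-yield library 1 (0.0656) or 2 (0.0617), and the group 2 mutant value passed without wildtype library 1 (0.028, in a range of 0.028 to 0.422 over 17 alternatives). Sgpp1, the phosphatase that turns sphingosine-1-phosphate back into sphingosine, was not called, at 0.07 ± 0.07, 0.05 ± 0.08 and -0.11 ± 0.08.

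Mfsd2b, the sphingosine-1-phosphate exporter of red blood cells, belongs to the wider list of 18 transport and signalling genes rather than to the 37, and moved against Spns2. It read 210, 213 and 260 CPM in group 1 wildtype and 143, 187 and 160 in mutant. The values in group 2 were 243, 254 and 231 CPM in wildtype, 176, 212 and 188 in mutants and 184, 189 and 195 in low-yield mutants. Every mutant library lay below wildtype. As log2 fold changes these were -0.48 ± 0.12 (adjusted p = 0.0353), -0.34 ± 0.08 (0.023) and -0.35 ± 0.08 (0.0103). In group 1 the call was lost without wildtype library 2 (0.0667) or 3 (0.0666), mutant library 1 (0.0522) or 3 (0.124), without the low-count filter (0.0527) and with a filter at a mean CPM of 5 (0.0505). In group 2 it was lost for mutants without wildtype library 2 (0.105) or mutant library 1 (0.129) or 3 (0.104), and for low-yield mutants without wildtype library 2 (0.0569) or low-yield library 1 (0.0641) or 2 (0.0504). The late erythroid markers, which fell in the same libraries, stand above, and their part in this or any other member's change was not tested.

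Of the same 18 genes, 15 were tested in group 1, with 5 lower: Gltp, Plekha8, Mfsd2b, Smpdl3a and Rtn4. Of 16 tested in group 2, Mfsd2b, Rtn4 and Aldh3a2 were lower in mutants and Plekha8, Mfsd2b, Smpdl3a and Rtn4 in low-yield mutants. Of all genes tested, 6.777%, 2.949% and 5.857% were called lower in these comparisons. Gltp and Plekha8, whose products move glycolipids between membranes, and Aldh3a2, an aldehyde dehydrogenase of sphingosine-1-phosphate breakdown, were named after their values were seen. Smpdl3a, an acid sphingomyelinase-like phosphodiesterase, changed by -0.80 ± 0.19 (adjusted p = 0.0188), -0.81 ± 0.26 (0.0775) and -1.10 ± 0.26 (0.0121) in the 3 comparisons. Rtn4, whose product Nogo-B can restrain serine palmitoyltransferase, changed by -0.26 ± 0.07 (0.0386), -0.31 ± 0.08 (0.0356) and -0.41 ± 0.08 (0.00386). Leaving out any 1 library of group 1 ended the Rtn4 call there (0.0641 to 0.16), and leaving out any of 7 of the 9 libraries, using the 6 compared libraries alone or no low-count filter ended it in group 2 mutants (0.054 to 0.18). For Smpdl3a the group 1 call was lost without wildtype library 3 (0.0725) or mutant library 1 (0.0521) or 3 (0.0945), and the low-yield call without low-yield library 1 (0.0593) or 2 (0.0552). Its group 2 mutant value passed under 5 of 17 alternatives, in a range of 0.0232 to 0.245. The genes called as higher in group 2 were sphingosine-1-phosphate receptors, named after their values were seen: S1pr4 in mutants (0.81 ± 0.21, 0.031) and low-yield mutants (1.10 ± 0.20, 0.00283), and S1pr1 in low-yield mutants (1.38 ± 0.35, 0.0173). S1pr1 is an endothelial gene too, and the endothelial markers given above were higher in the same libraries; their part was not tested.

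All 13 genes of lysosomal and related glycosphingolipid degradation were tested, and their medians of -0.10, -0.10 and -0.09 lay below those of all genes. The genes called as higher were Gla in group 1 (0.55 ± 0.16, adjusted p = 0.0384) and Gm2a in low-yield mutants (2.15 ± 0.62, 0.0321), both named after their values were seen. Gm2a, the activator protein of GM2 breakdown, was rare, at 0.253, 0.0289 and 0.312 CPM in group 2 wildtype and 1.06, 1.00 and 0.767 in low-yield mutants. In group 1 library 1 was lowest in wildtype (0.251, 1.58 and 1.46) and in mutant (0.446, 2.82 and 1.34), as it was in the granulocyte and mast cell markers, whose part in the Gm2a result was not tested. Arsa, which removes sulfate from sulfatide, fell in all 3 comparisons, by 0.59 ± 0.15 (adjusted p = 0.0256), 0.56 ± 0.13 (0.0184) and 0.64 ± 0.13 (0.00433) on the log2 scale. Neu3, a sialidase of plasma membrane gangliosides, fell by 0.59 ± 0.14 in group 1 (0.0175) and 0.47 ± 0.12 in low-yield mutants (0.0225), with -0.38 ± 0.12 in group 2 mutants (0.0862). Psap, the precursor of the saposins that present these lipids to their hydrolases, fell by 0.35 ± 0.09 in low-yield mutants (0.0145). The Arsa call in group 1 was lost without any of the wildtype libraries (0.0604, 0.114 and 0.0583) or mutant library 1 (0.0674) or both libraries numbered 1 (0.0868), and in group 2 mutants without wildtype library 2 (0.0635) or mutant library 1 (0.0804) or 3 (0.0867). Neu3 lost its group 1 call without wildtype library 1 (0.078) or 3 (0.073) or mutant library 2 (0.0541) or 3 (0.084) and with limma-voom (0.0604), and its low-yield call without wildtype library 1 (0.0668) or low-yield library 2 (0.117) or 3 (0.057). Psap lost its call without wildtype library 2 (0.064) or low-yield library 1 (0.0794) or 2 (0.105).

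Whether the genotype changed the 37 genes differently in the groups of mice was tested by the interaction of genotype and group over 12 libraries. edgeR called 0 of 34 members, with 0 members at an unadjusted p under 0.05, and 3 of 15954 genes (0.0188%), with 342 at an unadjusted p under 0.05. DESeq2 and limma-voom called 0 members as well. For Spns2 and Sphk1 the interaction terms were -0.12 ± 0.14 and -0.01 ± 0.16, and for Cers6 0.21 ± 0.21.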

How the data were processed

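RNA was extracted with RNeasy Micro kits and sequenced as 151 bp paired-end reads on a NovaSeq, per the labels' protocols. The authors deposited expected counts per gene in 1 table for each group of mice. The submitters' processing notes name cutadapt 2.3, FastQC 0.11.8, STAR 2.7.8a, RSEM 1.3.3, MultiQC 1.7 and GRCm38. The annotation release and the strand setting of the counting are not given in the sources used here. Expected counts were rounded to whole numbers, and 9 rows that name no mouse gene (5 counts) were left out.

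Genes passing filterByExpr (minimum count 10) were fitted with edgeR 4.0.16 (TMM factors, robust quasi-likelihood test, R 4.3.3). Group 2 comparisons shared 1 fit of its 9 libraries, so both mutant kinds share wildtype libraries. The p-values were adjusted by the Benjamini-Hochberg method over all genes tested, at 0.05, after tests of the scripts on simulated data. Levels per length used merged exons of GENCODE M21 (99.38% of gene IDs matched). Same-numbered group 1 libraries deviated together (r = 0.633, 0.302 and 0.291, each over 0.1, though wildtype 3 and mutant 2 gave 0.395), so the blocked value is given where it changes a group 1 call. Alternatives were DESeq2 1.42.0, limma 3.58.1 voom with quality weights, other size factors and filters, a replicate block and leaving out each library, plus edgeR's legacy mode and group 1 without its libraries numbered 1, both chosen after seeing the data.

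The 37 genes and all lists were chosen with earlier results of these data known. Values are given in every library for members called in at least 1 comparison and for the most abundant member of each arm, and by rule up to 3 called genes of each wider list, those with the smallest p, are named; others of these lists were named after their values were seen.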

Additional observations from a re-analysis of the deposited data

How the results depend on the processing

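No member changed direction under any alternative of a comparison in which it was called. In the 3 comparisons with wildtype, Spns2, Sphk1 and, in group 2, Cers6 and B4galt6 kept every call. Sptssa, Ormdl3, St3gal5 and Sgpl1 kept theirs in group 1. All 13 members called over both groups kept that call under every alternative that gave a value. In group 1 the replicate block raised the calls from 1766 to 2863 genes and from 9 to 14 members. Leaving out 1 library gave 753 to 1729 genes and 6 to 10 members there. In group 2 mutants limma-voom with quality weights called 1928 genes and 9 members in place of 942 and 4, and leaving out 1 library gave 425 to 1323 and 4 to 8. In low-yield mutants limma-voom called 3348 genes and 17 members in place of 1884 and 11, and leaving out 1 library gave 900 to 2395 and 5 to 15. Between low-yield mutants and mutants, DESeq2 called 6 genes, limma-voom 10 genes and 1 member, and leaving out 1 library 0 to 22 genes and 0 to 1 members, in place of 0. For the interaction DESeq2 called 12 genes and the replicate block 5 in place of 3, and leaving out 1 library gave 2 to 3. The cause of these shifts was not tested.

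Group 2 libraries share only a number (r = 0.379, 0.29 and 0.0103 between wildtype and mutant), and with the replicate block 1309 genes and 5 members were called in mutants and 2331 and 12 in low-yield mutants. Over both groups the block made Cerk (adjusted p = 0.00883) and B4galt6 (0.00406) pass. A filter at a mean CPM of 5 gave no value for the rarest members. With 3 libraries a group, and under 20 counts of B4galt6 and Sgms2 in each group 2 wildtype library, the size of their increases is imprecise.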
